A study of Drosophila melanogaster with 12 samples.

Results

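The circadian clock genes described here are period (per), timeless (tim), Clock (Clk), cycle (cyc), vrille (vri), PAR-domain protein 1 (Pdp1), clockwork orange (cwo), cryptochrome (cry) and Pigment-dispersing factor receptor (Pdfr). They were found by their FlyBase symbols among the 13515 rows of the gene table, and each of the 9 had 1 row. RNA came from heads of Drosophila melanogaster at day 10 of adulthood. The 6 control libraries came from flies of the genotype Elav-Gal4/+, which carry a driver active in all neurons and nothing for it to drive. The 6 tau libraries came from Elav-Gal4/+;UAS-tauR406W/+ flies, in which the same driver makes neurons produce human tau with the R406W mutation of inherited frontotemporal dementia. Each library was 1 pool of 18 heads, males and females together, so differences between single flies, sexes or cell types within a pool are not visible. The hour of the day at which heads were frozen is not given in the sources used here.

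The fly clock is a feedback loop in transcription. CLK and CYC bind E-box sequences as a pair and switch on per, tim, vri, Pdp1 and cwo; the PER and TIM proteins accumulate, enter the nucleus and block CLK and CYC. VRI represses Clk and PDP1 activates it, which forms a second loop. In heads of wild-type flies in a light-dark cycle, per, tim, vri and Pdp1 RNA is high around the beginning of the night, Clk and cry RNA is high around dawn, and cyc RNA changes little. Much of the clock RNA of a head comes from photoreceptors and glia in addition to the clock neurons, which are few.

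Values are normalised counts, that is, gene counts that the authors divided by normalisation factors. They were analysed as log2(value + 1) with limma over the 10845 genes whose mean over the 12 libraries was at least 10, and all 9 clock genes passed that filter. Depth was estimated at 20.2 to 33.2 M read pairs per control library and 25.8 to 41.5 M per tau library. The value of 1 read pair was 0.642 to 1.49 normalised counts, so that the levels of the 9 clock genes are far above the counting limit. Of the genes whose median did not exceed 2, 77.9% to 91.6% had some reads in control E, control F or tau B, against 10.2% to 40.2% in the other libraries; these are called below the 3 libraries with reads in silent genes. Control B stood apart in the clock genes themselves, as described next. Calls of the clock genes and of the lists are given with and without these libraries where they change. The spread between pools, the correlations and the likeness ranks were not recomputed without the 3 libraries with reads in silent genes.

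The level of tim, which encodes the light-sensitive partner of PER, differed widely between pools of 1 genotype. In the controls its lowest, median and highest values were 2549, 2851 and 9586, with the highest in control B and the next in control A. The other 5 controls lay between 2549 and 3950. In the tau libraries the lowest, median and highest values were 3930, 6517 and 11114, with tau A and tau E highest (11114 and 10184) and tau B and tau D lowest (3930 and 4156). Ordered by tim, 5 of the 6 tau libraries stood above 5 of the 6 controls, control B stood between tau E and tau F, and tau B stood just under control A.

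The libraries with high tim also had high vri, per and Pdp1. The repressor gene vri, which encodes a bZIP factor, reached 7114 in control B, 11611 in tau A and 9408 in tau E, and the other controls had 2555 to 3792. Of per, the gene of the founding clock repressor, control B held 2635 and the other controls 987 to 1473, while the tau libraries ran from 1640 in tau D to 4998 in tau A. Pdp1, the activator counterpart of vri, varied less, between 13308 and 31099 among controls and between 17446 and 32757 among tau libraries, and control B, tau A and tau E were again the 3 highest. In all 12 libraries the value of tim was 2.17 to 3.64 times that of per. This ratio varied 1.48-fold among the controls and 1.59-fold among the tau libraries, where tim itself varied 3.76-fold and 2.83-fold. Control B set the control values: without it, tim varied 1.55-fold among the controls and the ratio 1.14-fold.

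**Figure D1:**
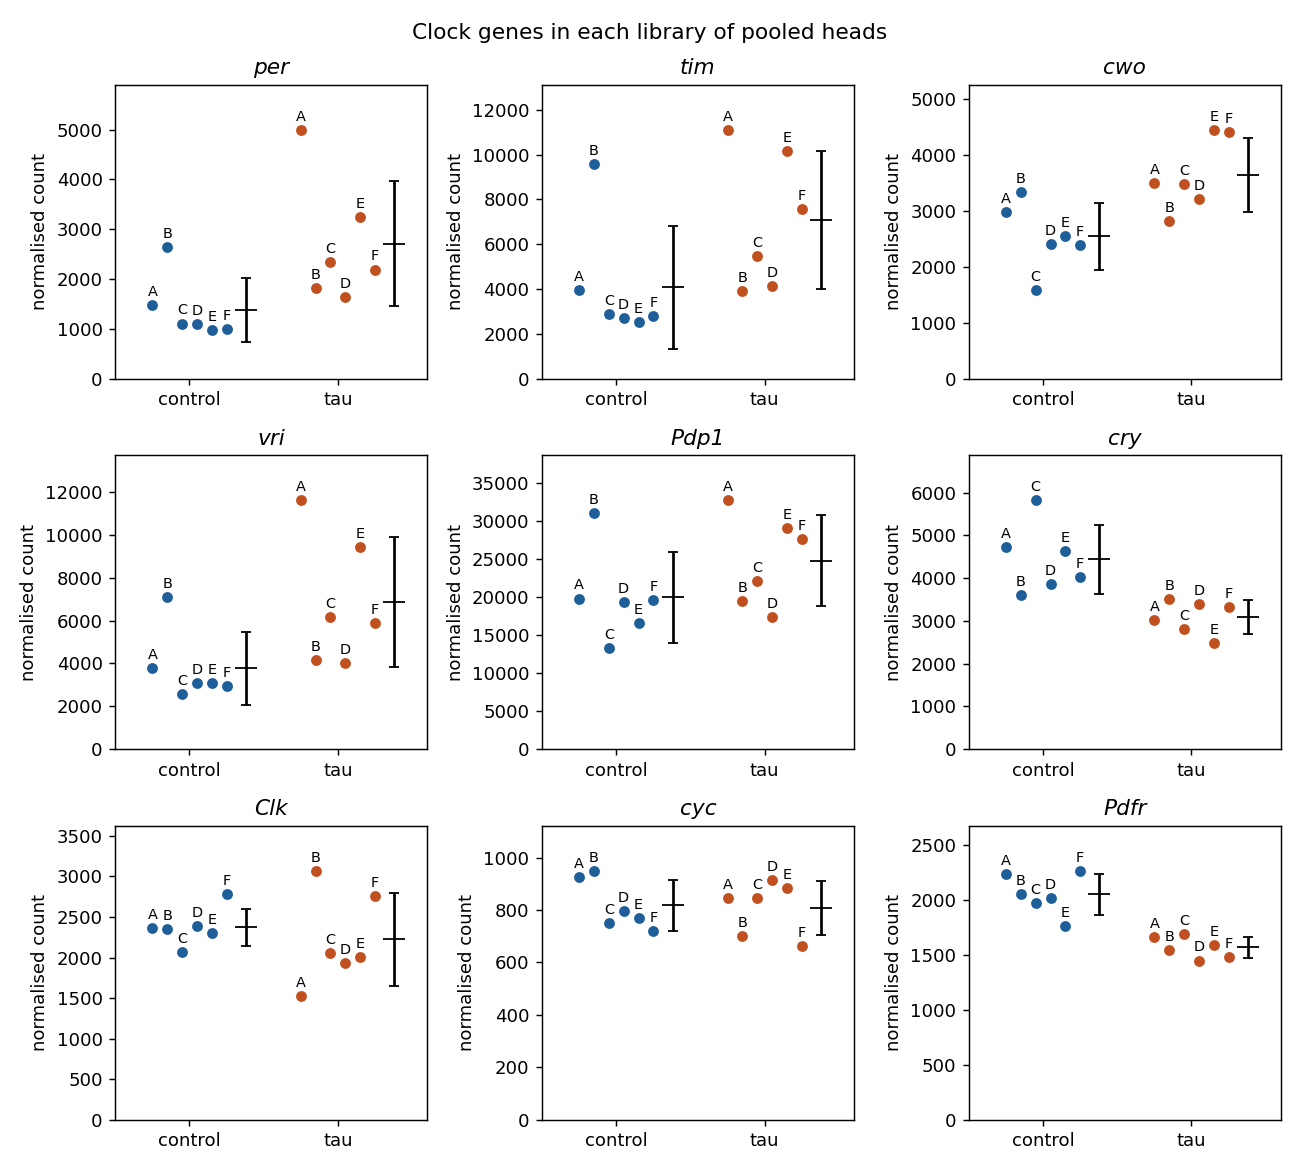
Normalised counts (vertical axes, from 0) of the 9 clock genes in each library; points carry the letter of the library, controls in blue and tau in orange, and the black bar is the mean with its SD (n = 6). Control B, tau A and tau E are high for tim, vri, per and Pdp1, and the groups do not overlap for cry and Pdfr.

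The spread of these genes within a genotype was large for their level. The residual SD of log2 values around the genotype means was 0.69 for tim, 0.57 for vri, 0.57 for per and 0.38 for Pdp1. Of the 500 tested genes nearest in mean level to each, 99% had a smaller SD than tim, 97.6% than vri, 97.6% than per and 89.8% than Pdp1. For cwo, a repressor at E-boxes, the SD was 0.32 (larger than in 86.8% of its 500 nearest genes), for Clk 0.28 (80.8%) and for cry, the blue-light receptor, 0.22 (69.8%). The SD of cyc, the partner of CLK, was 0.18 (33%), and that of Pdfr was 0.11 (10.6%). Without control B the SD was 0.51 for tim (97.2%), 0.48 for vri (95.8%), 0.47 for per (96.4%) and 0.31 for Pdp1 (83.4%). The widest spread between pools was thus that of tim, vri and per with and without control B, and cyc and Pdfr had less than the median of genes at their level. The spread of Clk was not alike in both genotypes: its SD on the log2 scale was 0.14 over the controls and 0.37 over the tau libraries, a difference that was not tested.

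Correlations were computed for 9 pairs of clock genes within each genotype, 18 relations in all, over 6 libraries each. In the tau libraries tim was correlated with Pdp1 (Pearson r = 0.97, exact permutation p = 0.00556; Spearman rho = 0.94, exact permutation p = 0.0167), with vri (r = 0.96, exact permutation p = 0.00833; rho = 0.89, exact permutation p = 0.0333) and with per (r = 0.90, exact permutation p = 0.00833; rho = 0.89, exact permutation p = 0.0333). Without tau A and tau B, the libraries farthest from the median of tim, r was 0.97, 0.92 and 0.90. In the controls tim and per had an r of 0.99 (exact permutation p = 0.00694; rho = 0.94, exact permutation p = 0.0167), which was 0.59 without control A and control B. These 4 relations had an adjusted p of 0.0375 for r (exact permutation, Benjamini-Hochberg over the 18), and none of the 18 passed for rho, where the smallest adjusted exact permutation p was 0.15. For tim and vri in the controls r was 0.96 (exact permutation p = 0.0319, adjusted 0.115; rho = 0.49, exact permutation p = 0.356), and −0.83 without control A and control B, so that it rests on those libraries. The same held for tim and Pdp1 in the controls, with r = 0.84 (exact permutation p = 0.0625; rho = 0.66) and −0.38 without control A and control B. For tim and cwo r was 0.64 in the controls (exact permutation p = 0.206; rho = 0.43), and −0.81 without those libraries, and 0.72 in tau (exact permutation p = 0.121; rho = 0.83), and 0.95 without tau A and tau B.

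Genes with RNA that is high around dawn gave weaker relations. For tim and cry r was −0.65 in tau (exact permutation p = 0.171; rho = −0.71) and −0.47 in the controls (exact permutation p = 0.336; rho = −0.09). For tim and Clk r was −0.53 in tau (exact permutation p = 0.3; rho = −0.60) and −0.06 in the controls (exact permutation p = 0.826; rho = −0.09). None of these passed. Without tau A and tau B, r in tau was −0.67 for tim and cry and 0.32 for tim and Clk. Without control A and control B, r in the controls was 0.43 for tim and cry and −0.12 for tim and Clk. The negative r of tim and Clk in tau thus rests on tau A and tau B. In tau A, with the highest tim, Clk was at its lowest of all 12 libraries, 1520, and in tau B, with the lowest tim of the tau group, Clk was at its highest, 3071. Tau F and tau D did not follow that order. Clk was at 2757 and tim at 7564 in tau F, and Clk was at 1938 and tim at 4156 in tau D. The value of Clk was 1.80 times that of cyc in tau A and 4.38 times in tau B, and 2.47 to 3.87 times in the controls.

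**Figure D2:**
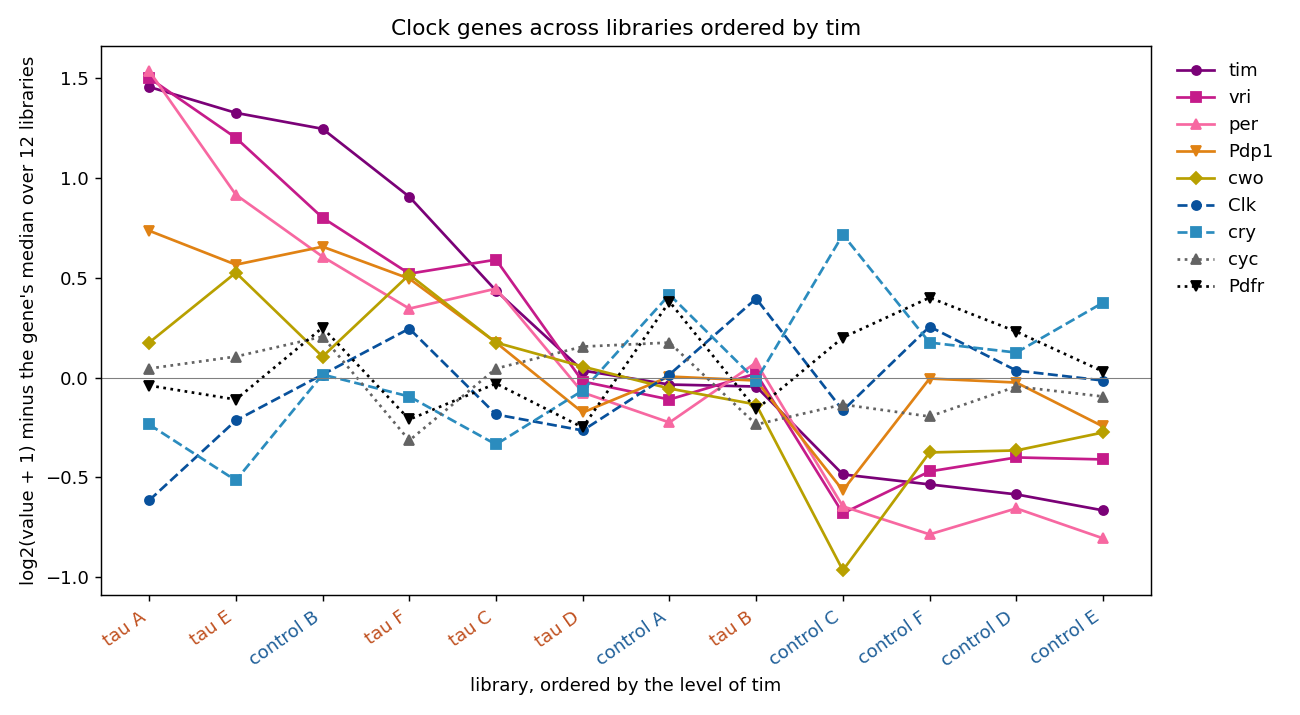
Log2 level of each clock gene minus its median over the 12 libraries (vertical axis), with libraries ordered from the highest to the lowest tim (horizontal axis; controls in blue lettering, tau in orange). The lines of tim, vri, per and Pdp1 fall together from tau A to the controls at the right, cry lies lowest in tau E and highest in control C, and Pdfr and cyc vary within a narrower range.

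The genes whose pattern was most like that of tim were looked for among the 9016 other genes with a mean of at least 50, by Pearson r of log2 values as deviations from the genotype means over the 12 libraries. Of all of them vri ranked 1 (r = 0.95), per 3 (r = 0.94) and Pdp1 5 (r = 0.90), while cwo ranked 248 (r = 0.67). Outside the clock genes themselves the 5 most alike were gol (rank 2, r = 0.95), Usp8 (rank 4, r = 0.92), Cipc (rank 6, r = 0.90), Slob (rank 7, r = 0.89) and Dyrk2 (rank 8, r = 0.89). gol encodes a RING-finger ubiquitin ligase, Usp8 a deubiquitinase known to act on CLK, Cipc the fly counterpart of a mammalian CLOCK-interacting protein, Slob a partner of the potassium channel Slowpoke and Dyrk2 a protein kinase. RNA of Usp8 and Slob is known to cycle over the day in heads. At the other end, cry stood 728th from the lowest r (−0.54) and Clk 1934th (−0.35).

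Usp8 was at 1902 in control B and at 590 to 894 in the other controls, and ran from 904 in tau D to 3191 in tau A. gol was at 5228 in control B, 6572 in tau A and 5276 in tau E, and between 1903 and 3454 in the other 9 libraries. Without control B the ranks were 1 for vri, 2 for gol, 4 for per, 9 for Usp8, 18 for Pdp1 and 28 for Slob. In the controls alone per ranked 1, Usp8 4, gol 6 and vri 10. In the tau libraries alone Dyrk2 ranked 12, Pdp1 13, vri 26, gol 60, per 95 and Usp8 141, of 9015 genes. With 6 libraries many genes reach a high r, so these ranks are a description, and shared depth and scaling of a library enter all of them.

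For Clk the 5 most alike genes were Cad87A (r = 0.94), dpr16 (0.92), CG1090 (0.90), CG42700 (0.89) and icln (0.87). Tau B and tau F were the highest tau libraries for each of the 5, as they were for Clk. Control F was the highest control for all of them but icln. Tau B and control F are among the 3 libraries with reads in silent genes, and likeness to Clk was not computed without them. icln was low, with means of 63.3 in the controls and 70.1 in tau. The r of Clk with cry was 0.10, rank 3605 of 9016, and with cyc −0.61. Within a genotype, Clk and cry had an r of −0.64 in the controls (exact permutation p = 0.172; rho = −0.49) and of 0.48 in tau (exact permutation p = 0.326; rho = 0.37). Neither passed, and the difference between them was not tested. Without the libraries farthest from the median of Clk, both were negative. They were −0.44 without control C and control F, and −0.29 without tau B and tau F.

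**Figure D3:**
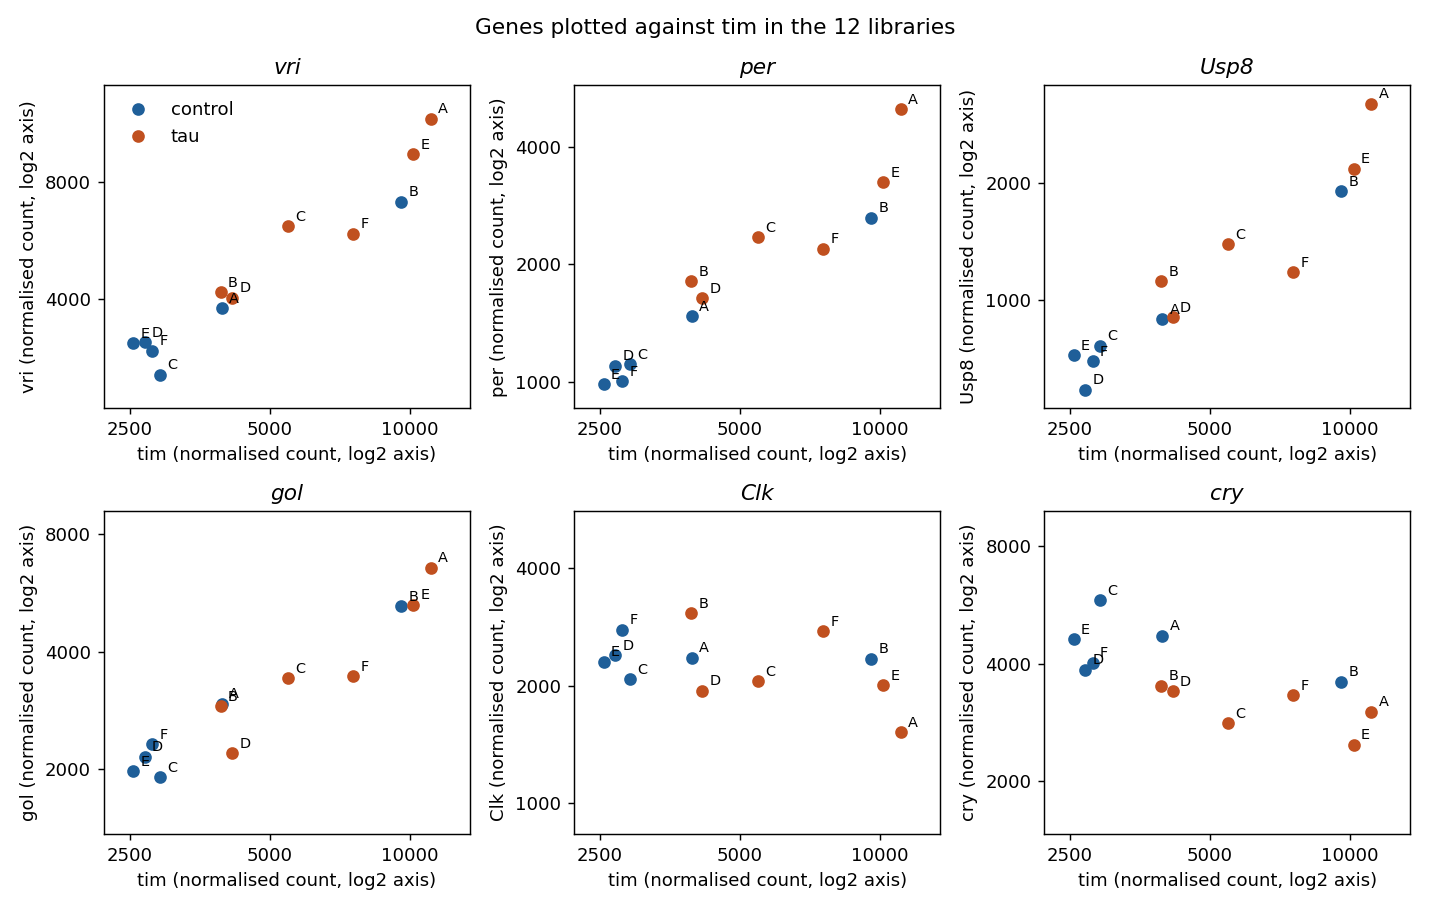
Normalised counts of vri, per, Usp8, gol, Clk and cry (vertical axes, log2 scale) against tim (horizontal axes, log2 scale) in the 6 control (blue) and 6 tau (orange) libraries, lettered by library. vri, per, Usp8 and gol are highest in control B, tau A and tau E, the libraries with the highest tim. Among the controls the relation of vri to tim rests on control A and control B. Clk shows no common order, and cry is lower in every tau library than in any control.

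The comparison of tau with control asked whether clock gene RNA differs with neuronal tau. Of the 9 genes, 2 fell and none rose at an adjusted p under 0.05, where 3.13% of all tested genes were called lower, 2.1% higher and 5.23% in either direction. The genes that fell were cry and Pdfr, and in both the 6 tau values lay below all 6 control values, which 3.37% of tested genes did in either direction. The median log2 fold change of all tested genes was 0.01.

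Pdfr encodes the receptor through which clock neurons respond to the neuropeptide PDF. Its lowest, median and highest values were 1763, 2038 and 2269 in the controls and 1451, 1568 and 1690 in tau. Every tau library lay below control E, the lowest control, though by a narrow margin for tau C. Pdfr fell 1.30-fold, from 2054 ± 186 to 1572 ± 96.2 (SD, n = 6 per group), with a log2 fold change of −0.38 ± 0.08 (SE; limma adjusted p = 0.0116). In RNA of whole heads, fewer cells of a type and less RNA per cell cannot be told apart. It remained called without control B (limma adjusted p = 0.0178), without the 3 libraries with reads in silent genes (limma adjusted p = 0.039) and without any single library (limma adjusted p up to 0.0379). With libraries rescaled to equal totals, which moved the median of all genes to 0.11, the log2 fold change was −0.28 (limma adjusted p = 0.0535), and with the mean of the yolk protein genes as a covariate it was −0.30 (limma adjusted p = 0.197). The yolk protein genes Yp1, Yp2 and Yp3 themselves had log2 fold changes of −0.91, −1.22 and −0.89, none of them called. That covariate therefore overlaps in part with genotype, here and wherever it is used below.

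cry encodes the blue-light receptor that marks TIM for degradation and resets the clock. Its lowest, median and highest values were 3600, 4321 and 5819 in the controls and 2479, 3166 and 3511 in tau. The highest tau library, tau B, stood just under the lowest control, control B, which was also the control with the highest tim. cry fell 1.43-fold, from 4441 ± 804 to 3090 ± 396, with a log2 fold change of −0.51 ± 0.12 (limma adjusted p = 0.0183). The call held without any single library (limma adjusted p up to 0.0493). It was lost without the 3 libraries with reads in silent genes (−0.57, limma adjusted p = 0.0739), without the variance trend (limma adjusted p = 0.0542) and with the yolk protein covariate (−0.41, limma adjusted p = 0.239).

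**Figure D4:**
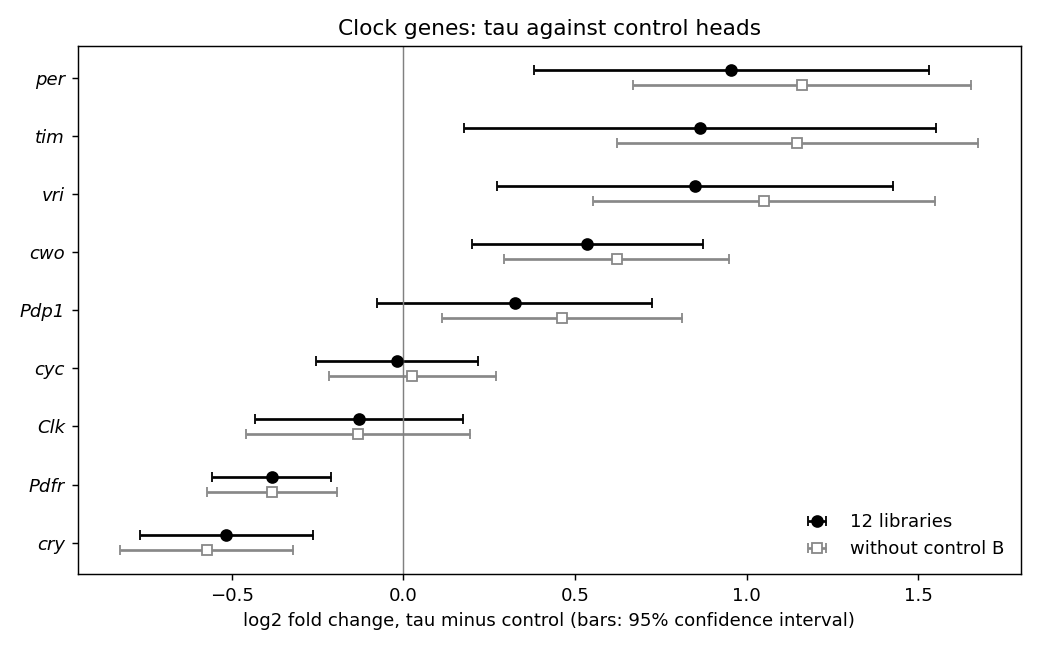
Log2 fold change of each clock gene, tau minus control (horizontal axis), with its 95% confidence interval from limma, over 12 libraries (filled circles) and without control B (open squares). The intervals of per, tim, vri and cwo lie above 0 in both fits and farther from it without control B. That of Pdp1 lies above 0 only without control B, and those of cry and Pdfr lie below 0 in both fits. The intervals are not adjusted for the number of genes tested.

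The 4 genes per, tim, vri and cwo did not pass over 12 libraries with the deposited scaling. Fold changes were 1.94 for per (log2 0.96 ± 0.27, limma adjusted p = 0.0534), 1.82 for tim (0.86 ± 0.32, limma adjusted p = 0.152), 1.80 for vri (0.85 ± 0.27, limma adjusted p = 0.0891) and 1.45 for cwo (0.54 ± 0.16, limma adjusted p = 0.064). With libraries rescaled to equal totals, per, vri and cwo were higher in tau past the threshold (limma adjusted p = 0.0212, 0.0381 and 0.0256), as they were with array weights (limma adjusted p = 0.0229, 0.0361 and 0.0232), and tim in neither. With recentring on library medians per alone of these 4 passed (limma adjusted p = 0.0475). For per, tim and vri only tau A and tau E stood above every control, and control B overlapped the other 4. For cwo the lowest, median and highest values were 1589, 2483 and 3335 in the controls and 2818, 3486 and 4448 in tau, and 4 tau libraries stood above every control. Its order of libraries differed from that of tim: tau E and tau F were highest, control B was the highest control but control C, at 1589, the lowest of all.

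Without control B, 6 of the 9 clock genes were called, 4 higher and 2 lower, beside 2.12% of all tested genes called higher and 4.12% lower in that fit. The log2 fold changes were then 1.16 ± 0.23 for per (limma adjusted p = 0.00722), 1.15 ± 0.25 for tim (limma adjusted p = 0.0117), 1.05 ± 0.23 for vri (limma adjusted p = 0.0144) and 0.62 ± 0.15 for cwo (limma adjusted p = 0.0246). Nothing in the labels sets control B apart, and it is singled out here because its clock genes differed, so the second set of values is no better estimate than the first. Leaving out tau B brought the calls to 4, with per (limma adjusted p = 0.0478) and cwo (limma adjusted p = 0.0443) added to cry and Pdfr. With the 3 libraries with reads in silent genes left out, 1 clock gene was called, Pdfr.

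Clk, cyc and Pdp1 were not called in either fit. Clk had a log2 fold change of −0.13 ± 0.14 (95% confidence interval −0.43 to 0.17, limma adjusted p = 0.716), with 4 tau libraries below every control and tau B above every control. Its mean was 2375 ± 229 in the controls and 2224 ± 575 in tau. For cyc the value was −0.02 ± 0.11 (−0.25 to 0.22, limma adjusted p = 0.963), which became 0.09 with libraries rescaled to equal totals, with means of 818 ± 96.9 and 808 ± 103. Pdp1 had 0.33 ± 0.19 (−0.08 to 0.73, limma adjusted p = 0.4) over all libraries and 0.46 ± 0.16 (limma adjusted p = 0.121) without control B. The intervals of Clk and cyc exclude a 2-fold change in either direction.

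The balance of genes with RNA high early in the night and at dawn was expressed as the mean log2 level of per, tim, vri and Pdp1 minus that of Clk and cry. It was −0.10 in control C, 0.05 in control E, 0.10 in control F, 0.26 in control D, 0.45 in control A and 1.57 in control B. In tau it was 0.58 in tau B, 0.87 in tau D, 1.25 in tau F, 1.43 in tau C, 2.13 in tau E and 2.49 in tau A. On this score every tau library stood above 5 of the 6 controls, and control B stood among the tau libraries, between tau C and tau E. The group means differed by 1.07, and by 0.86 to 1.31 with any 1 library left out. The score subtracts cry, which was lower in every tau library than in any control, so it repeats that difference in part. It was not computed without cry, so the order of libraries above holds only for the score that includes it. Tau B and control A were neighbours in the score. On the log2 scale Clk was at 11.58 in tau B and 11.20 in control A, and cry at 11.78 and 12.21. That tau B stood above control A thus rests on cry. Clk and cry did not vary together as deviations from the genotype means (r = 0.10). A difference in the hour of collection and a difference in genotype cannot be told apart with these labels.

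Levels of different genes were compared per kb of merged exon of the Ensembl annotation. In the controls the order was cry (2342 ± 424 normalised counts per kb), Pdp1 (1645 ± 495), vri (794 ± 356), tim (580 ± 390), Clk (526 ± 50.7), cyc (503 ± 59.6), cwo (499 ± 117), Pdfr (440 ± 39.9) and per (306 ± 141). In tau Pdp1 came first (2042 ± 493), followed by cry (1630 ± 209), vri (1450 ± 639), tim (1004 ± 437), cwo (715 ± 129), per (598 ± 277), cyc (497 ± 63.1), Clk (492 ± 127) and Pdfr (337 ± 20.6). The ranges of neighbours in these orders overlapped in every case. The mean RNA level per kb of cyc, the partner of CLK, was thus about that of Clk in both genotypes. Single libraries differed, since the ratio of Clk to cyc before division by exon length ran from 1.80 to 4.38 in tau.

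The genes lie at X:2685580-2692780 (per), 2L:3493986-3508119 (tim), 3L:7763233-7775603 (Clk), 3L:19813770-19815938 (cyc), 2L:5288944-5311223 (vri), 3L:7811458-7867369 (Pdp1), 3R:10388258-10400752 (cwo), 3R:19212154-19215442 (cry) and X:2552206-2578640 (Pdfr), in the Ensembl annotation of BDGP6 with dm6 coordinates. Exons of per share 49 bases with dyw on the opposite strand, which had means of 28.4 in the controls and 96.5 in tau and was named after its values were seen. Exons of tim share 545 of 7039 bases with lncRNA:CR46495 on the opposite strand, and exons of cry share 329 of 1896 bases with lncRNA:CR46393 on the same strand. Neither lncRNA was analysed here, and reads in the shared bases of cry cannot be assigned to 1 of the 2 genes. Libraries were stranded per the labels' protocols; the strand setting of the quantification is not given in the sources used here.

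RNA of genes whose proteins modify, destroy or help translate the clock proteins was followed next. Of 15 genes of clock kinases, phosphatases and protein turnover, none was called, and their median log2 fold change was 0.07. The PER kinases dco (doubletime), nmo and CkIIalpha had values of 0.07, −0.04 and 0.13, and sgg, the kinase of TIM, 0.01. slmb and jet, which mark PER and TIM for degradation, had 0.00 and 0.11. Usp8 had 0.82 ± 0.30 (limma adjusted p = 0.15), was the member with the highest value, and was called in 1 of the 12 fits that leave out a library. That fit was the one without control B, its own highest control (limma adjusted p = 0.0249), and the other 11 gave limma adjusted p of 0.0919 to 0.279. Of 8 cofactors in RNA and chromatin, none was called (median 0.07), and the smallest adjusted p was that of Atx2, a translational partner of per (−0.10, limma adjusted p = 0.627).

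Among 21 peptides and receptors of clock neurons none was called (median −0.02). Pdf, the peptide that binds Pdfr and synchronises clock neurons, had a lowest, median and highest value of 405, 642 and 799 in the controls and 382, 420 and 632 in tau. The groups overlapped over most of that range. Its log2 fold change was −0.40 ± 0.18 (limma adjusted p = 0.256), and without the 3 libraries with reads in silent genes it was called lower (limma adjusted p = 0.0492). Those libraries were the lowest controls for Pdf, control E and control F (405 and 525), and its highest tau library, tau B (632). CNMa, a peptide of dorsal clock neurons, had 1.22 ± 0.41 (limma adjusted p = 0.103), with means of 162 ± 72 in the controls and 371 ± 138 in tau. It was called in 1 of the 12 fits that leave out a library, the one without tau D, its lowest tau library (limma adjusted p = 0.0147), and the other 11 gave limma adjusted p of 0.0743 to 0.189. Of 11 genes of the Gs and cAMP pathway through which Pdfr signals, none was called (median 0.01), and CrebB had the smallest adjusted p (−0.25 ± 0.08, limma adjusted p = 0.0902).

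None of 24 genes of clock output and sleep was called (median 0.00), and the smallest adjusted p was that of Crz, the peptide corazonin (−0.51 ± 0.16, limma adjusted p = 0.0818). Slob had 0.29 ± 0.21 (limma adjusted p = 0.534) and to (takeout) −0.08 ± 0.24 (limma adjusted p = 0.912). Of 8 genes with RNA known to cycle in heads, 2 fell and none rose (median −0.17), where 3.13% of all tested genes were called lower and 2.1% higher. Pdh, a retinol dehydrogenase of the eye, fell 2.09-fold, from 34035 ± 9606 to 15986 ± 2424 (limma adjusted p = 0.00112), and Ugt35B1, a glycosyltransferase, fell from 721 ± 193 to 359 ± 84.8 (limma adjusted p = 0.00614, and 0.101 with the yolk protein covariate). Of 13 genes of light and temperature input none was called (median 0.11), and Rh6, a rhodopsin of inner photoreceptors, had −0.35 ± 0.10 (limma adjusted p = 0.0625).

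Markers of the cell types that hold clock RNA moved in part. Of 17 photoreceptor markers 3 fell, the arrestin genes Arr1 and Arr2 and the rhodopsin chaperone gene ninaA (log2 fold changes −0.47, −0.45 and −0.46), none rose and the median was −0.15, beside 3.13% of all tested genes called lower. Their summed level was 1384960 to 1674700 in control and 1163810 to 1507580 in tau libraries. Most of that sum was 1 gene, ninaE, with means of 1001930 in the controls and 869061 in tau, which was not called. No photoreceptor marker was called without the 3 libraries with reads in silent genes, and Arr1 lost its call in 10 of the 12 fits that leave out a library (limma adjusted p up to 0.106), all but those without control F and without tau A. Arr2 lost it in 3, without control A, tau B or tau E (limma adjusted p up to 0.0539). Both also lost it without the filter on low values, with rescaling to equal totals and with recentring on library medians. Of 9 glia markers, 1 fell (the glutamate transporter Eaat1, −0.53, limma adjusted p = 0.00893) and 1 rose (Gli, 0.40, limma adjusted p = 0.015), with sums of 55312 to 66771 in the controls and 50147 to 56094 in tau. None of 11 neuron markers was called (median 0.04; sums of 114133 to 184417 in the controls and 127294 to 167123 in tau), and nSyb had the smallest adjusted p (−0.24, limma adjusted p = 0.309).

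Markers of fat body and blood cells, which the head capsule also holds, had larger fold changes. Beside 3.13% of all tested genes called lower, 3 of 9 fat body markers fell (fit, tobi and LpR2, with log2 fold changes of −2.41, −2.90 and −1.28) and none rose. The summed level was 866979 to 2568910 in the controls and 633785 to 1538970 in tau. Most of that sum came from Yp1, Yp2, Yp3 and apolpp, none of them called. The call of tobi was lost without the variance trend (limma adjusted p = 0.0621; PPO1, below, 0.0545) and with the yolk protein covariate (limma adjusted p = 0.237). Of 8 haemocyte markers 6 fell against the same 3.13%, among them eater, Sr-CI, PPO2 and PPO1 (−1.41, −1.10, −1.15 and −1.18), with sums of 25637 to 39427 in control and 18471 to 21703 in tau libraries, which do not overlap. The count was 7 without control B and 4 without the 3 libraries with reads in silent genes. With the yolk protein covariate, Arr1, Arr2, ninaA, Eaat1, PPO1 and Act57B also lost their calls. Of 9 muscle markers 1 rose, Act57B (0.38, limma adjusted p = 0.02), with sums of 102248 to 130708 in control and 111032 to 161553 in tau libraries; neither Act57B nor Gli was called without the 3 libraries with reads in silent genes, nor Act57B without tau C (limma adjusted p = 0.0534). No marker of these 6 lists was at 0 in any library. The part of these cell types in the lower level of cry and Pdfr was not tested.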

How the data were processed

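RNA of 12 pools of fly heads was measured, 6 per genotype. The submitters' processing notes name Trimmomatic 0.36, FastQC, Salmon 0.13.1, DESeq2 1.24 and build dm6. The authors deposited 1 value per gene and library, a signal made of counts divided by normalisation factors, as the name of the table says. Sources used here do not give the annotation, the gene-level step or any row filter. They are not whole reads, so no count model was used. Depth was estimated as each library's total divided by its value of 1 read pair, the most common low value.

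Symbols were matched for 13433 rows. Genes with a mean of at least 10 were tested on log2(value + 1), which understates changes of low genes, with limma 3.58.1 in R 4.3.3 (lmFit, eBayes with trend, no covariate), two-sided, with Benjamini-Hochberg adjustment and calls at an adjusted p under 0.05. The fit was tested on simulated data. The p-values measure the spread between pools, which the submitters describe as independent. The clock genes and lists were chosen with earlier results of these data known. Named list genes were the up to 4 called with the smallest adjusted p, otherwise the 1 with the smallest, plus Pdf and the 5 genes most like tim and Clk; other examples were chosen for their known roles. Exact permutation tests of correlations were two-sided. Exon lengths came from the Ensembl annotation of BDGP6. Computation used Python 3.11.15, numpy 2.4.6 and pandas 2.3.3. Alternatives changed the pseudocount (0.5 or 5), filter, scaling, variance model, covariates and libraries; fewer libraries for the genes most like tim, for list calls and for the spread between pools were chosen after seeing the data.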

Additional observations from a re-analysis of the deposited data

Results flagged for a closer look

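A library was singled out where its gap to the nearest other of its group exceeded 0.625 of the group's range on the log2 scale (Dixon's 95% value for 6 samples). Of 82 groups examined 8 had such a library. Chance would give about 4.1 if the groups were independent. They are not, since some of the genes, Usp8, Cipc and dpr16 among them, were named for their likeness to tim or Clk. The 8 can therefore not be read as an excess. In control B, tim was at 9586 (others 2549 to 3950), Usp8 at 1902 (590 to 894) and Cipc at 1629 (868 to 1063), all high, while LpR2 was low at 13533 (19824 to 23058). In control C, ninaA was high at 2068 (1536 to 1650) and Gli at 1832 (1342 to 1453). In control F, dpr16 was high at 296 (196 to 223), and in tau D, CNMa was low at 107 (383 to 516). Of the 9 clock genes themselves, tim was the only one singled out in these 82 groups.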

How the results depend on the processing

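Of the 9 clock genes, 2 were called as reported, and the count was 4 with rescaling to equal totals, 5 with array weights, 1 without the variance trend, 0 with yolk proteins as covariate and 1 without the 3 libraries with reads in silent genes; leaving out 1 library gave 2 to 6. Over all genes, 567 were called (228 higher, 339 lower): 525 higher with rescaling (66.8% of calls instead of 40.2%), 876 (424 higher) with array weights, 369 (212 lower) without the trend, 146 (54 and 92) with the covariate and 281 (126 and 155) without the 3 libraries. Leaving out 1 library gave 375 to 677 calls, 147 to 239 higher and 222 to 447 lower. The 4 correlations past adjusted p 0.05 became 0 to 4, and 0 without any 1 tau library, where 5 libraries allow few distinct p-values. Same-letter libraries did not pair: their deviations correlated at −0.23 to 0.14 over 10845 genes and no library matched its own letter best. The replicate block gave 3 called clock genes, per added, and 699 calls over all genes.

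Some directions changed. With rescaling, log2 fold changes were 0.086 for cyc, 0.0053 for Atx2, 0.044 for dpr16 and 0.023 for icln, and r of Clk and cyc in the controls was 0.13; Dyrk2 had −0.0066 with array weights. With recentring on library medians, r of tim and Clk was 0.14 and of Clk and cyc 0.30 in the controls. With 1 library left out, cyc ran from −0.056 to 0.037, Dyrk2 from −0.029 to 0.18, dpr16 from −0.18 to 0.048 and icln from −0.32 to 0.16; in the controls r ran from −0.63 to 0.23 for tim and cry, −0.28 to 0.26 for tim and Clk, −0.37 to 0.49 for vri and Clk and −0.60 to 0.57 for Clk and cyc. Of clock gene fold changes under an alternative, 182 kept direction and side of the threshold, 5 lost a call, 15 gained one and 5 reversed, all of cyc. The Clk and cyc relations rest on few libraries; the cause of these changes was not tested.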
